A study of Mus musculus and Rattus norvegicus with 53 samples.

Results

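Schwann cells (SCs) sorted from the distal stump of the sciatic nerve 2 days after transection (day 2 dSCs) were compared with SCs sorted from intact nerves (iSCs). The samples were picked by their titles, for a comparison chosen with earlier results of these data known. They comprise 8 of the 53 samples of the series: 3 day 2 distal libraries, numbered 0, 3 and 4, and 5 intact libraries, numbered 0, 1, 3, 4 and 5. Each library was made by the Smart-seq2 protocol, a full-length cDNA method for small amounts of polyA RNA, from the tdTomato+ cells of a single mouse nerve. All groups, young adult male and female mice, carried the same alleles, a Cre transgene active in the neural crest lineage and a Rosa26 tdTomato reporter, which marks myelinating and non-myelinating SCs alike. The intact nerves were contralateral to a transected nerve, so that their animals were not uninjured. The labels gave a different animal to each of the 8 libraries, but intact and day 2 distal libraries 0, 3 and 4 share mouse numbers in their source names and animal codes in the names of the deposited files, so that 3 pairs may come from the same animals and the groups may not be independent.

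Myelinating SCs wrap axons in a lipid-rich membrane held together by proteins such as Pmp22. When an axon is cut, the SCs of the distal stump lose contact with it, shut down the myelin programme, re-enter the cell cycle and become repair cells that secrete trophic factors and chemokines, clear myelin debris and call in macrophages. The first days cover the beginning of this change, when myelin is still present and inflammatory cells begin to enter the nerve.

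The libraries of the comparison held between 9240883 and 19206620 counts on genes. Intact 0, intact 1 and day 2 distal 0 stood apart from the other 5. In them Rn45s, the precursor of ribosomal RNA, took 33.8%, 37.5% and 38.6% of the counts, against 0.444% to 0.805% in the others, and 10572, 10042 and 10306 genes had at least 1 count, against 14045 to 15815. Since 1 of the 3 day 2 and 2 of the 5 intact libraries were of this kind, the number of detected genes overlapped between the groups (a mean of 1027 more genes at day 2, p = 0.464, two-sided exact permutation test of the library labels, whose smallest possible p is 0.0357). Leaving out 1 library moved this difference between 20, without day 2 distal 4, and 2775, without day 2 distal 0, when both remaining day 2 libraries (15284 and 15815 genes) were above every intact one. Spike-in RNA gave 0 to 182 counts per library, too few to measure the RNA put in, and the log2 ratio of spike-in to gene counts was higher at day 2 by 1.62 (p = 0.5, same two-sided exact permutation test).

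Levels are in CPM, gene counts relative to library size after TMM scaling, and differences as log2 fold changes of day 2 dSCs over iSCs with their standard errors. All 35 single-nerve libraries were fitted jointly and tested with edgeR's quasi-likelihood method, with p-values adjusted by Benjamini-Hochberg over all genes of the fit. A gene was called at an adjusted p under 0.05. In a first fit of the 7171 genes with at least 100 counts in at least 85% of these libraries, 72 genes (1.00%) were called, 47 of them higher (0.655%) and 25 lower (0.349%) at day 2, while 863 had an unadjusted p under 0.05. The 3 and 5 libraries did not overlap for 67 of the 72. Over all 7171 genes they did not overlap in 304 genes with day 2 higher (4.24%) and 305 with day 2 lower (4.25%). A second fit with a wider filter took in genes that are silent in one of the states, tested 15519 genes and called 69 (0.445%), 58 of them higher (0.374%) and 11 lower (0.0709%). Of these, 22 lay outside the first filter, among 8348 such genes tested, and all 22 were higher at day 2. Such genes can enter the second fit through the few libraries in which they are high, so their common direction is not a result in itself.

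The number of calls rested on the joint fit and on single libraries. Fitted on the 8 libraries alone, 0 genes passed the adjusted threshold, with 412 at an unadjusted p under 0.05. In the joint fit the number of calls was 28 without day 2 distal 0, 25 without day 2 distal 4, 43 without intact 4 and 140 without intact 1. Without the 3 Rn45s-rich libraries it was 32, 29 higher and 3 lower, and 24 of the 72 genes and 3 of the 22 outside the first filter remained called. Of the 72 genes, 16 remained called whichever of the 8 libraries was left out. All 72 kept their direction, which was nearly fixed in advance for the 67 without overlap and so lends no support. With the replicate number as a block, 162 genes were called, 116 higher (1.62%) and 46 lower (0.641%), among them 64 of the 72.

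Shh, the secreted ligand sonic hedgehog (chromosome 5, 28783355 to 28793641, mm9), was at 0.931, 0.413, 1.54, 3.36 and 1.92 CPM in intact 0, 1, 3, 4 and 5, and at 111, 173 and 244 CPM in day 2 distal 0, 3 and 4. Its log2 fold change was 6.74 ± 1.17 (SE; adjusted p = 0.0035, wider filter, n = 3 and 5). All 3 injured nerves lay far above all 5 intact nerves, and Shh remained called whichever library was left out, though not without the 3 Rn45s-rich libraries (adjusted p = 0.0755). Betacellulin (Btc), an EGF family ligand, was at 7.45, 8.25, 0, 4.39 and 0.165 CPM in the intact libraries and 195, 63.1 and 94.4 CPM at day 2 (log2 fold change 4.93 ± 1.03, adjusted p = 0.0189). Its groups did not overlap either. Its call was lost without day 2 distal 0 (adjusted p = 0.0764), without intact 4 and without the 3 Rn45s-rich libraries (0.0709).

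Gfra1, the co-receptor for GDNF, went from 19.2 to 54.4 CPM in the intact libraries to 229, 323 and 407 CPM at day 2 (log2 fold change 3.10 ± 0.62, adjusted p = 0.00859 in the first fit, and 0.0541 without day 2 distal 4). Nestin (Nes), an intermediate filament of immature glia, was at 29.0, 6.4, 51.6, 77.5 and 37.2 CPM and then at 310, 310 and 326 CPM (log2 fold change 2.96 ± 0.59, adjusted p = 0.00855). The 3 day 2 values of Nes were almost equal, although 1 of them came from an Rn45s-rich library. Without the 3 Rn45s-rich libraries neither gene passed (adjusted p = 0.0838 for Nes and 0.0917 for Gfra1). Ucn2, a peptide of the corticotropin-releasing family, was above 0.055 CPM in 1 intact library, number 4, at 10.0 CPM, and at 844, 102 and 117 CPM at day 2. Its call (adjusted p = 0.0423, wider filter) was lost with the replicate block (adjusted p = 0.0962) and without any 1 of intact 0, 1, 3 and 5 and day 2 distal 0 and 4, with an adjusted p up to 0.182. Syt4, a synaptotagmin of secretory vesicles, was at 1.71, 5.98, 0.0594, 3.59 and 0.22 CPM in the intact libraries and at 369, 276 and 477 CPM at day 2 (log2 fold change 7.44 ± 1.57, adjusted p = 0.0193). That call was lost without intact 0, intact 4 or day 2 distal 4, with an adjusted p up to 0.0541. Ucn2 and Syt4 had adjusted p of 0.514 and 0.128 without the 3 Rn45s-rich libraries.

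Of the 40 tested members of a list of matrix, protease and epithelial-mesenchymal transition genes, 5 were higher and 0 lower, where 0.655% of all genes tested were called higher, with 20 members above and 20 below 0 and a median log2 fold change of 0.10 against −0.03 over all genes tested. They were Timp1, Tnc, Cd44, Lgals3 and Spp1. Timp1, an inhibitor of metalloproteinases, was at 38.9, 26.0, 18.1, 28.3 and 35.5 CPM and then at 1530, 340 and 483 CPM (log2 fold change 4.74 ± 0.70, adjusted p = 0.00023). Tenascin C (Tnc) was at 2.17, 0.206, 9.21, 33.3 and 14.9 CPM and then at 93.0, 337 and 276 CPM (4.28 ± 0.81 on the log2 scale, adjusted p = 0.00559). The hyaluronan receptor Cd44 was at 112, 133, 60.9, 82.8 and 108 CPM and then at 589, 622 and 723 CPM (log2 fold change 2.70 ± 0.36, adjusted p = 1e-04). In all 3 genes every day 2 library was above every intact library, and all 3 remained called in each of the leave-one-out fits and without the 3 Rn45s-rich libraries. Fbn2, a fibrillin of microfibrils outside that list, did so too, at 4.81 to 9.70 CPM in the intact libraries and 40.3, 64.1 and 45.2 CPM at day 2 (log2 fold change 2.85 ± 0.51, adjusted p = 0.00296). Osteopontin (Spp1) rose from 247 to 1120 CPM to 2440, 7810 and 8000 CPM (log2 fold change 3.62 ± 0.84, adjusted p = 0.0291), but its adjusted p was 0.115 with the replicate block and up to 0.103 without intact 3, 4 or 5 or day 2 distal 3 or 4. Galectin 3 (Lgals3) was at 340, 425, 36.4, 150 and 78.6 CPM and then at 3850, 1200 and 2070 CPM (log2 fold change 3.53 ± 0.73, adjusted p = 0.0108, and 0.0724 without day 2 distal 0). Outside the list, Thbs2, a thrombospondin, was called at an adjusted p of 0.0252. That call was lost without day 2 distal 4 (adjusted p = 0.101) and without day 2 distal 3. Spp1 and Thbs2 did not pass without the 3 Rn45s-rich libraries (adjusted p = 0.0544 and 0.129).

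**Figure D1:**
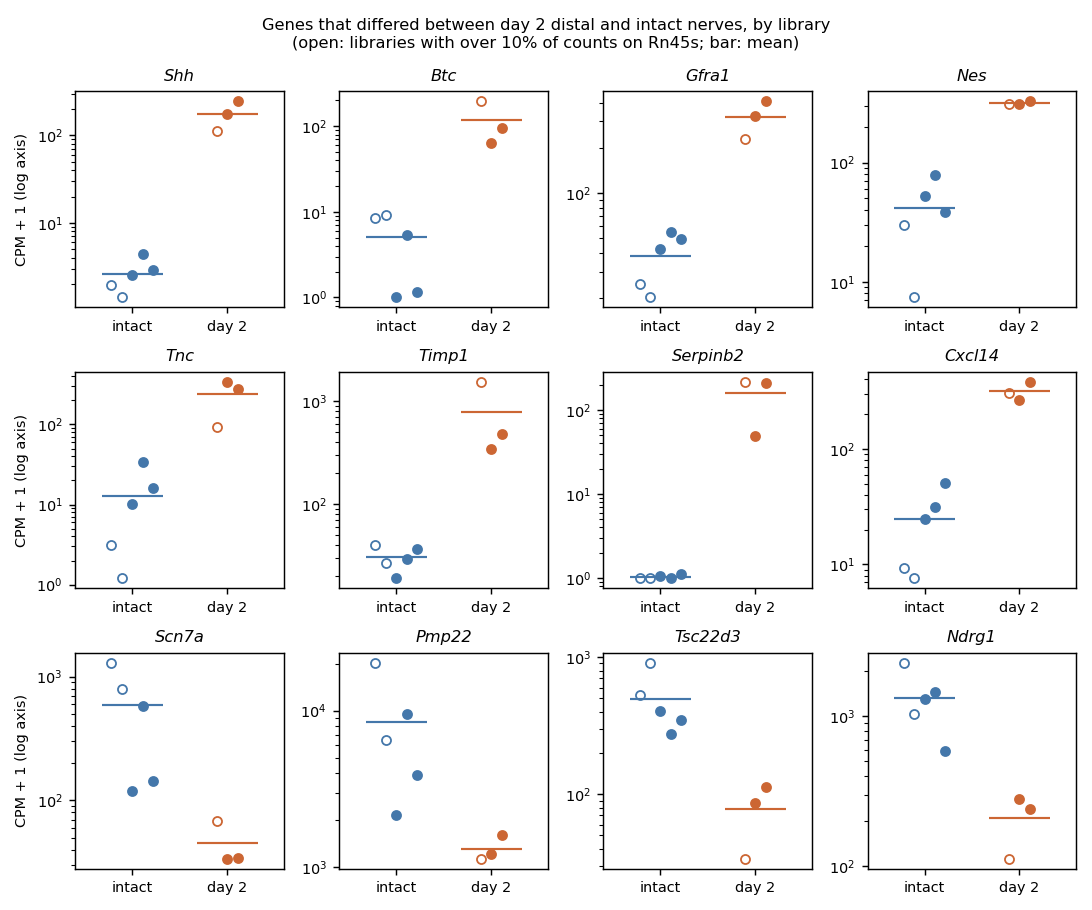
CPM + 1 (log axis) of 12 genes in each of the 5 intact (blue) and 3 day 2 distal (orange) libraries, with open circles for the 3 Rn45s-rich libraries and bars for group means. All 12 genes were picked from those called. In all 12 panels the groups are apart, for instance Shh at 0.413 to 3.36 CPM against 111 to 244 CPM and Tsc22d3 at 272 to 909 CPM against 32.7 to 111 CPM.

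Among the genes outside the first filter whose groups did not overlap, the largest fitted rise was that of Serpinb2, an inhibitor of plasminogen activators. It had 3 counts in all 5 intact libraries together and 213, 48.5 and 206 CPM at day 2, a ratio of 3180 with a 95% counting interval from 1090 to 15400 (adjusted p = 0.0035, wider filter). It remained called in each of the leave-one-out fits, and its adjusted p was 0.0927 without the 3 Rn45s-rich libraries. In the first fit the largest rise was that of Slc37a2, a sugar phosphate transporter of the endoplasmic reticulum that is abundant in macrophages, at 0, 0, 0.0594, 0.114 and 0.77 CPM in the intact libraries and 54.3, 65.0 and 61.6 CPM at day 2 (log2 fold change 7.98 ± 0.85, adjusted p = 1.41e-06). Such counting intervals treat the few intact reads as independent counts and hold the day 2 value fixed. They leave out the spread between nerves. PCR copies were not told apart by molecular identifiers, so they may be too narrow even for counting error.

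The promoters of these 2 genes are shown because these genes had the largest rise without overlap of the libraries in the second and the first fit. They are RefSeq windows on GRCm38.p6, from 250 bases before to 50 bases after the start site, with matches to TGANTCA, the AP-1 motif, in capitals. This motif is its own reverse complement, so that 1 scan covers both strands. The first of 2 windows of Serpinb2 lies at chr1:107511173-107511472 on the plus strand and the window of Slc37a2 at chr9:37255689-37255988 on the minus strand.
Serpinb2: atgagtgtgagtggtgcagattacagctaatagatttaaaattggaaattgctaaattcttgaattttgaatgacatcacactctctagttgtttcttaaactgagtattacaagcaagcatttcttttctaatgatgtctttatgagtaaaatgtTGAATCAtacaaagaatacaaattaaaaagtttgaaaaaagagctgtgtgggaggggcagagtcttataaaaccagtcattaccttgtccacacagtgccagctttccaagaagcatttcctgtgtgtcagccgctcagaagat
Slc37a2: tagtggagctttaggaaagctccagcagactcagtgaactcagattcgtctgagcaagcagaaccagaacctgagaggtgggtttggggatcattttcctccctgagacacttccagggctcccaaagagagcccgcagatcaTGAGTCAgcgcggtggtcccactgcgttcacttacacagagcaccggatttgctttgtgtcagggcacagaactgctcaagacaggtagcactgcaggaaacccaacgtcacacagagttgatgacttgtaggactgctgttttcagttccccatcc
The motif was present in 6 of the 57 windows (10.5%) of the 49 genes called higher that could be matched. It was in 1 of 29 windows (3.45%) of the 19 matched genes called lower, and in 2565 of all 32851 windows (7.81%). The 2 windows of Serpinb2 overlap and hold the same match. By gene, 5 of the 49 called higher, 1 of the 19 called lower and 2425 of all 27025 had the motif. A match is a run of letters and no bound site, and these shares were not tested.

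Of 12 tested chemokines, cytokines and inflammatory signals, 2 were higher and 0 lower in the first fit, where 0.655% of all genes were called higher (median log2 fold change 1.10, against −0.03 over all genes). Of 27 in the second fit 3 were higher, against 0.374% of all genes (median 2.73, against −0.07). Members outside the first filter can enter this fit through the libraries in which they are high. The larger median is therefore not a result in itself. Cxcl14 was at 8.38, 6.60, 23.5, 30.2 and 49.7 CPM and then at 305, 262 and 379 CPM (log2 fold change 3.73 ± 0.53, adjusted p = 0.000214). The groups did not overlap and the call held in every leave-one-out fit and without the 3 Rn45s-rich libraries (adjusted p = 0.00591). Ccl7, a monocyte chemoattractant, was at 34.3, 115, 11.2, 12.7 and 64.2 CPM and then at 1640, 444 and 609 CPM (log2 fold change 4.24 ± 1.03, adjusted p = 0.0341). It was called in 2 of the 8 leave-one-out fits, those without intact 1 and without day 2 distal 3, and its adjusted p was 0.162 without the 3 Rn45s-rich libraries. For Ccl2, another ligand of the same receptor, 155, 94.5, 15.4, 29.7 and 90.1 CPM stood against 1850, 710 and 798 CPM at an adjusted p of 0.0633. Cxcl5, a neutrophil attractant, had 1 count in all intact libraries and 0, 37.2 and 70.9 CPM at day 2, so that 1 of the 3 injured nerves lay at the intact level (a ratio of 3220 with a 95% counting interval from 577 to 127000, adjusted p = 0.0165, and 0.12 with the replicate block). Its call was lost without intact 4 (adjusted p = 0.057), without day 2 distal 4 and without the 3 Rn45s-rich libraries (0.0768). Il6 and Lif were at most 11.6 and 14.4 CPM in these 8 libraries and were not called (adjusted p = 0.723 and 0.987).

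Many of the genes called higher are known from macrophages rather than SCs. Of the 13 tested macrophage markers, 4 were higher and 0 lower, where 0.655% of all genes tested were called higher, and with the replicate block 9 were higher, where 1.62% were. All 13 had a log2 fold change above 0, as had 3472 of all 7171 genes, and the median was 2.54 against −0.03. The summed level of 15 markers was 364 to 1590 CPM in the intact libraries and 5280 to 7790 CPM at day 2, without overlap. Lyz2, the lysozyme of myeloid cells, was at 170, 99.2, 145, 196 and 717 CPM and then at 1710, 2710 and 3820 CPM (log2 fold change 3.37 ± 0.66, adjusted p = 0.00783, and 0.0704 without the 3 Rn45s-rich libraries). Itgam, an integrin subunit of myeloid cells, was at 0, 0, 0.178, 1.25 and 4.40 CPM and then at 4.95, 138 and 175 CPM (6.41 ± 1.13 on the log2 scale, adjusted p = 0.0035, wider filter). The Rn45s-rich day 2 library was thus barely above the highest intact value of Itgam, while the other 2 were far above it.

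The other called markers were Cd68, C1qb and Emr1 (now Adgre1), with adjusted p of 0.0434, 0.0232 and 0.0377. These 3 calls were lost in 5, 3 and 4 of the 8 leave-one-out fits, each of them without day 2 distal 4 (adjusted p = 0.147, 0.103 and 0.179). Among the 12 named genes with the largest rise, Ms4a7, Msr1, Myo1f, Ccl6, Lair1 and the lysosomal protease cathepsin S (Ctss) are likewise expressed by myeloid cells. Ctss was at 68.3, 39.6, 22.3, 54.9 and 114 CPM and then at 710, 1510 and 1320 CPM (log2 fold change 4.30 ± 0.63, adjusted p = 0.00023), and Ms4a7 at 1.55, 27.9, 0.0594, 4.33 and 9.35 CPM and then at 628, 104 and 142 CPM (5.10 ± 0.91, adjusted p = 0.00296). Ctss, Ms4a7 and Myo1f remained called whichever library was left out, which was not so for Ccl6 (adjusted p up to 0.198, lost without intact 0, intact 4 or day 2 distal 0), Lair1 (up to 0.10, lost without intact 0, intact 4, day 2 distal 0 or day 2 distal 4) or Msr1 (up to 0.138, called only without intact 5). Ccl6, Lair1 and Msr1 did not pass without the 3 Rn45s-rich libraries either (adjusted p = 0.081, 0.256 and 0.147). Tlr13, an endosomal receptor of bacterial RNA, had 0 counts in all 5 intact libraries and 0, 56.2 and 55.5 CPM at day 2, over the group at least 1050-fold higher than a floor of 3 counts. Arg1, an arginase of alternatively activated macrophages, was at 0, 0, 13.8, 25.1 and 6.82 CPM and then at 1460, 628 and 903 CPM, and its call (adjusted p = 0.043) was lost in all 8 leave-one-out fits (adjusted p up to 0.0909) with the replicate block (0.138) and without the 3 Rn45s-rich libraries (0.285). Chemokines, Lgals3, Spp1 and Cd44 are also expressed by macrophages, and the part of the macrophage transcripts in their rise was not tested. In these bulk libraries a different number of cells of a type and a different amount of RNA per cell cannot be told apart.

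**Figure D2:**
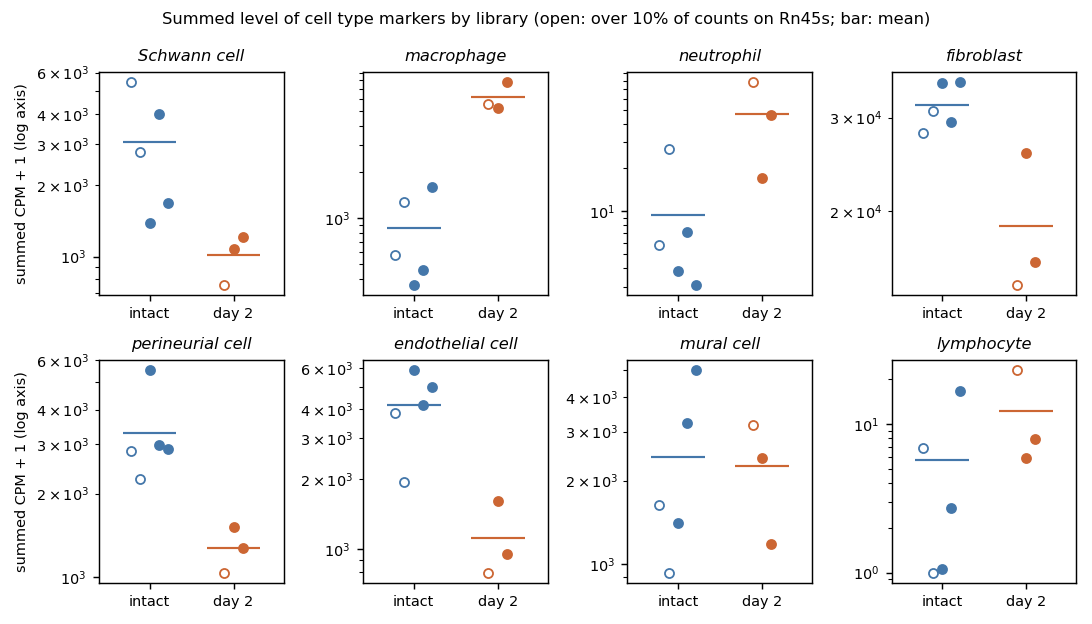
Summed CPM + 1 (log axis) of 8 lists of cell type markers in each intact (blue) and day 2 distal (orange) library, with open circles for the Rn45s-rich libraries and bars for means. Macrophage markers lie at 364 to 1590 CPM against 5280 to 7790 CPM, and Schwann cell, fibroblast, perineurial and endothelial markers are lower in all 3 day 2 libraries than in all 5 intact ones.

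Among the markers of SCs, fibroblasts, endothelial cells and mural cells 0 were called. The summed level of 10 SC markers, which include myelin genes, was 5470, 2770, 1380, 4010 and 1680 CPM in the intact libraries and 759, 1080 and 1210 CPM at day 2, and 0 of its 5 tested members was called. Sox10, the transcription factor that defines the lineage, was at 22.8 to 119 CPM in the intact libraries and 21.5, 43.0 and 74.5 CPM at day 2, and the groups overlapped (log2 fold change −0.14 ± 0.66, adjusted p = 0.964). Fibroblast markers summed to 28100 to 35000 CPM and then 14500 to 25700 CPM, endothelial markers to 1940 to 5890 CPM and then 791 to 1610 CPM, and mural cell markers to 932 to 5000 CPM and 1180 to 3170 CPM. The sums did not overlap for fibroblast and endothelial markers and overlapped for mural cell markers. Neutrophil and lymphocyte markers summed to 2.09 to 26.0 CPM and 0 to 15.7 CPM in the intact libraries and 15.9 to 77.1 CPM and 4.88 to 22.0 CPM at day 2. The hemoglobin genes had 0 counts in all 8 libraries, and the markers of skeletal muscle and adipocytes summed to at most 18.3 and 77.6 CPM. The tdTomato+ libraries of both groups thus held RNA of genes that other nerve cells are known for, and how much of each difference came with it was not tested.

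Most tested genes of growth and division had a log2 fold change above 0, but few were called. Of the 15 tested genes of G2 and M phase all 15 had a log2 fold change above 0 with a median of 1.5, of 21 genes of G1 and S phase 19 did (median 1.13), and of 28 genes of the MYC network and of ribosome biogenesis 26 did (median 1.13), against 3472 of all 7171 genes and a median of −0.03. The calls among them were few: 1 in the first list (Hmgb2), 0 in the second and 1 in the third (Srm), where 0.655% of all genes were called higher. With the replicate block they were 2, 1 and 4, and without the 3 Rn45s-rich libraries 0 in each. Hmgb2, a chromatin protein of dividing cells, was at 70.7, 42.9, 62.2, 48.1 and 34.9 CPM and then at 162, 140 and 150 CPM (log2 fold change 1.54 ± 0.39, adjusted p = 0.0486, and 0.11 with the replicate block). Its groups did not overlap, but the call held in 1 of the 8 leave-one-out fits, that without intact 0. Srm, which makes spermidine, was at 59.9, 99.7, 33.1, 66.2 and 93.1 CPM and then at 237, 183 and 226 CPM (1.61 ± 0.38, adjusted p = 0.0311), with a call in 2 of the 8, those without intact 1 and intact 5. Hmgb2 and Srm had adjusted p of 0.162 and 0.108 without the 3 Rn45s-rich libraries.

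The gene listed as 2810417H13Rik (now Pclaf), a partner of the replication clamp PCNA, was at 16, 3.51, 11, 5.87 and 0.88 CPM and then at 266, 56.4 and 65.3 CPM. Its log2 fold change was 4.12 ± 0.71 (adjusted p = 0.00245), and it remained called in each leave-one-out fit and without the 3 Rn45s-rich libraries (adjusted p = 0.0454). Bub1, a kinase of the spindle checkpoint, had 1 count in the intact libraries and 12.5, 22.6 and 17.7 CPM at day 2, a ratio of 1210 with a 95% counting interval from 216 to 47600. All 3 injured nerves had Bub1 reads, and the call (adjusted p = 0.0282) was lost with the replicate block (0.123) and without intact 0, 3, 4 or 5 or day 2 distal 4 (up to 0.0786), and without the 3 Rn45s-rich libraries (0.197). Mcm5, a subunit of the replicative helicase, was at 0.155, 0, 13.1, 14.8 and 11.1 CPM and then at 70.8, 70.3 and 92.9 CPM, at an adjusted p of 0.0631 and of 0.0496 with the replicate block. The proliferation marker Mki67 was at 0, 0, 56.8, 1.71 and 0.165 CPM in the intact libraries and 3.88, 60.2 and 60.3 CPM at day 2, so that intact 3 reached the level of the injured nerves (adjusted p = 0.748). Cyclin D1 (Ccnd1) had 151 to 294 CPM against 214, 459 and 425 CPM (adjusted p = 0.342). Hsp90aa1, a chaperone, and Etf1 and Pa2g4, which act in translation and growth, were called at log2 fold changes of 1.80, 1.93 and 1.89 (adjusted p = 0.0172, 0.00259 and 0.00855). Without day 2 distal 0 these became 0.0787, 0.0643 and 0.0599, and Hsp90aa1 was also lost without day 2 distal 4. Without the 3 Rn45s-rich libraries they were 0.0838, 0.146 and 0.0917.

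**Figure D3:**
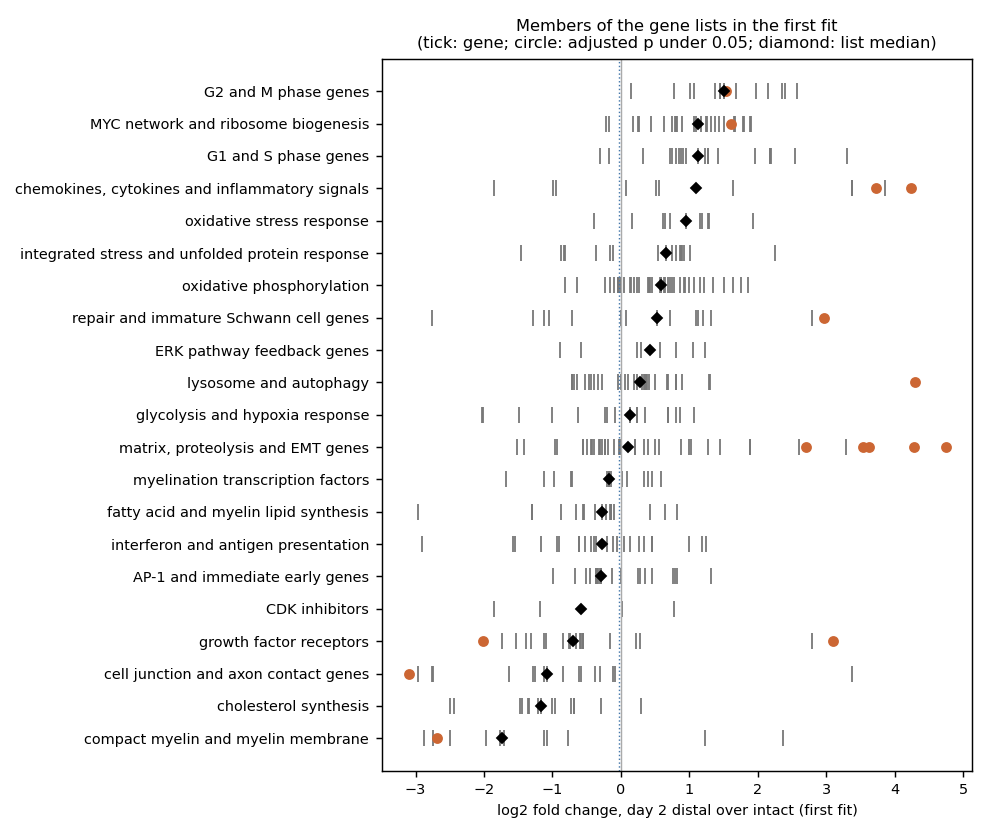
Log2 fold change of day 2 dSCs over iSCs (first fit) for each tested member of 21 gene lists, ordered by list median (diamond), with ticks for genes, circles for those at an adjusted p under 0.05 and the dotted line at the median of all genes, −0.03. The G2 and M phase list has a median of 1.5 with 1 of 15 members called, and the compact myelin list a median of −1.74 with 1 of 12 called.

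Of the 12 named genes with the largest fall, Scn7a, a sodium channel of glia and fibroblasts, and Tsc22d3, a leucine zipper protein induced by glucocorticoids, remained called whichever library was left out and without the 3 Rn45s-rich libraries. Scn7a (chromosome 2, 66511482 to 66622971, mm9) was at 1290, 796, 118, 578 and 143 CPM and then at 67.0, 32.7 and 33.1 CPM (log2 fold change −3.72 ± 0.68, adjusted p = 0.00339). Tsc22d3 was at 530, 909, 402, 272 and 350 CPM and then at 32.7, 85.8 and 111 CPM (−2.68 ± 0.45, adjusted p = 0.00159). In both genes the Rn45s-rich intact libraries had the highest values, and the remaining intact libraries were still above all 3 injured nerves.

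Ndrg1, a cytoplasmic protein that peripheral nerve needs for stable myelin, was at 2270, 1040, 1300, 1450 and 586 CPM and then at 111, 278 and 241 CPM (log2 fold change −2.66 ± 0.51, adjusted p = 0.00574, 0.0583 without day 2 distal 0 and 0.0917 without the 3 Rn45s-rich libraries). Pleiotrophin (Ptn), a secreted growth factor, fell from 57.8 to 191 CPM to 5.17, 45.4 and 20.7 CPM (−2.55 ± 0.54, adjusted p = 0.0123), and Ephx1, an epoxide hydrolase, from 172 to 372 CPM to 47.4, 69.9 and 34.8 CPM (−2.33 ± 0.47, adjusted p = 0.00855). No library of either group lay within the range of the other for Ptn and Ephx1. The calls of Ptn and Ephx1 were lost without day 2 distal 0 or 4 (adjusted p up to 0.0938 and 0.0854), and that of Ptn without the 3 Rn45s-rich libraries (0.0838). Cldn1, the tight junction protein claudin 1 of perineurial cells and SCs, was at 348, 486, 571, 379 and 167 CPM and then at 19.8, 58.2 and 57.9 CPM (−3.10 ± 0.73, adjusted p = 0.0291, and up to 0.136 without any 1 of the day 2 libraries). Perineurial markers as a whole summed to 2260 to 5540 CPM and then 1040 to 1510 CPM, and Cldn1 was 1 of the 4 tested, the other 3 being below 0 without a call. With the replicate block 3 perineurial markers were called lower, where 0.641% of all genes were. Lpar1, a receptor of lysophosphatidic acid, fell from 295 to 685 CPM to 39.2, 162 and 157 CPM (−2.02 ± 0.47, adjusted p = 0.0291), with the call lost without day 2 distal 0 (0.135) or 4. The genes listed as 3110062M04Rik (now Cyren) and Tmem140 had nearly the same values in every library, such as 168 and 168 CPM in intact 0. They overlap on opposite strands of chromosome 6 (34821771 to 34828060 and 34813146 to 34824946, mm9), and since the protocol keeps no strand, their reads cannot be told apart. Their log2 fold changes were −2.30 ± 0.54 and −2.27 ± 0.54 (adjusted p = 0.0291 and 0.0311), and both calls were lost without any 1 of the day 2 libraries (up to 0.143 and 0.161), that of Tmem140 also without intact 1. Islr, which mesenchymal cells make, and Gm15441, an uncharacterised locus, also fell, by 2.26 and 2.19 on the log2 scale (adjusted p = 0.0291 for both), and lost their calls without day 2 distal 0 or 4 or intact 4, and Islr also without intact 3 (up to 0.136). Without the 3 Rn45s-rich libraries the adjusted p was 0.205 for Cldn1, 0.304 for Lpar1, 0.207 for 3110062M04Rik, 0.202 for Tmem140, 0.0697 for Islr and 0.187 for Gm15441.

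Of 12 tested genes of compact myelin and the myelin membrane 10 had a log2 fold change below 0, as had 3699 of all 7171. Among the 12, 1 was called lower, where 0.349% of all genes were. The median was −1.74 (−1.24 without the 3 Rn45s-rich libraries), against −0.03 over all genes. Pmp22 (chromosome 11, 62942484 to 62973049, mm9) was at 20200, 6450, 2160, 9480 and 3860 CPM and then at 1130, 1210 and 1610 CPM (log2 fold change −2.68 ± 0.66, adjusted p = 0.0377). The groups did not overlap, although intact 3 at 2160 CPM was close to day 2 distal 4 at 1610 CPM. The call was lost with the replicate block (adjusted p = 0.0532), without the 3 Rn45s-rich libraries (0.322) and without intact 0, intact 4 or any 1 of the day 2 libraries (up to 0.136). Mbp, myelin basic protein, was at 1750 to 10900 CPM against 1270, 1830 and 2010 CPM (log2 fold change −1.71 ± 0.96, adjusted p = 0.492). Mbp and Pmp22 mRNA was thus present in every day 2 library, and the groups overlapped for Mbp.

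Of 15 tested genes of cholesterol synthesis, which feeds myelin membrane, 14 were below 0, as were 3699 of all 7171, and 0 were called. The median was −1.17 against −0.03 over all genes, and −0.53 against −0.05 without the 3 Rn45s-rich libraries. Of the 15 tested myelination transcription factors 0 were called (median −0.18, and −0.02 without the 3 Rn45s-rich libraries). Egr2, which drives the myelin genes, was at 103, 5.98, 73.2, 149 and 54.7 CPM and then at 0.431, 71.2 and 69.1 CPM, and in both groups an Rn45s-rich library was the lowest (adjusted p = 0.805). Among 17 genes of junctions and axon contact Cldn1 was the 1 called, as lower, where 0.349% of all genes were. Of the 17, 16 were below 0, as were 3699 of all 7171 genes, and the median was −1.08 against −0.03.

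The groups overlapped in the best known early genes of injured SCs. Of 21 AP-1 and immediate early genes 0 were called, with a median of −0.29 (−0.13 without the 3 Rn45s-rich libraries). Jun, the AP-1 subunit on which the repair state depends, was at 203, 28.1, 776, 843 and 635 CPM in the intact libraries and 60.1, 896 and 538 CPM at day 2 (log2 fold change 0 ± 0.73, adjusted p = 0.999). Fos, which cells induce within minutes of stress, was at 533 to 2770 CPM in the intact libraries and at 577, 2720 and 1340 CPM at day 2 (adjusted p = 0.891). The groups overlapped in both genes, and intact 1 and day 2 distal 0, which are Rn45s-rich, were the lowest of their groups in both. Atf3 was at 4.34 to 85.4 CPM against 33.6, 174 and 128 CPM (adjusted p = 0.667).

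Of 15 tested genes of repair and immature SCs, Nes was called higher, where 0.655% of all genes were (median 0.53, against −0.03). The second fit added Btc, Shh and Ucn2 to the list's calls among 33 genes, where 0.374% of all genes were called higher. Here too, genes outside the first filter can enter through the libraries in which they are high. Ngfr, the p75 neurotrophin receptor, was at 44.2, 52.4, 30.5, 143 and 65.8 CPM and then at 102, 562 and 733 CPM (log2 fold change 2.79 ± 0.76, adjusted p = 0.0633). Gdnf, the ligand of Gfra1, was at 0, 0, 0, 2.96 and 0.11 CPM and then at 1.94, 39.5 and 33.4 CPM (adjusted p = 0.221). In both the Rn45s-rich injured nerve was within the intact range and the other 2 were above it. Sox2 was at 0 to 13.2 CPM against 7.10 to 10.1 CPM, Olig1 at 0 CPM in all 3 day 2 libraries, and Bdnf and Artn at or below 2.54 CPM in them, and none of the 4 was called (adjusted p = 0.916, 0.944, 0.476 and 0.987).

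The remaining lists had few calls or 0. Oxidative stress genes had a median of 0.95 with 0 of 11 called, the integrated stress and unfolded protein response 0.66 with 0 of 17, oxidative phosphorylation 0.58 with 0 of 40, ERK feedback genes 0.43 with 0 of 8 and glycolysis 0.13 with 0 of 18. Fatty acid and myelin lipid synthesis had −0.27 with 0 of 17, interferon and antigen presentation −0.28 with 0 of 24, and CDK inhibitors −0.58 with 0 of 4, a median that turned to 0.12 without the 3 Rn45s-rich libraries. Lysosome and autophagy had 0.28 with 1 of 32, Ctss, and growth factor receptors −0.70 with Gfra1 higher and Lpar1 lower of 20. Of all genes tested, 0.655% were called higher and 0.349% lower, and the median was −0.03. Over all 7171 genes of the first fit, the 3 day 2 libraries lay above the 5 intact ones in 304 genes (4.24%) and below them in 305 (4.25%), so that non-overlap alone was far more frequent than a call.

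To place day 2 in time, dSCs of this day were compared directly with the 3 libraries each of day 1 and day 4 dSCs. Against day 1, 0 of 7171 genes (0%) were called by edgeR, with 187 at an unadjusted p under 0.05, while DESeq2 called 2 and limma with sample quality weights 295. Against day 4, edgeR called 1 gene (0.0139%), with 876 at an unadjusted p under 0.05, while DESeq2 called 133 and limma with sample quality weights 29. The gene called by edgeR was H19, an imprinted long noncoding RNA of growing tissue (chromosome 7, 149761434 to 149764048, mm9). H19 was at 10.5, 51.6 and 64.5 CPM at day 2, which overlapped the intact nerves (19 to 53 CPM) and day 1 (26.8 to 71.8 CPM), and at 465 to 949 CPM at day 4 (log2 fold change of day 2 over day 4 −4.05, adjusted p = 0.012). That call was lost without day 4 distal 1 or any 1 of the day 2 libraries.

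Named genes followed several courses over the distal days, given here as means of 3 libraries. Those given were all called at day 2 against intact nerves, and this choice favours an extreme value on that day. Serpinb2 was at 23.2 CPM at day 1, 156 CPM at day 2 and at most 0.0526 CPM at days 4, 6, 8 and 10. Arg1 had 420 CPM at day 1, 997 CPM at day 2, 103 CPM at day 4 and 9.39 CPM at day 8, and Timp1 360, 786, 93.8 and 80 CPM on the same days. Shh was at 13.6 CPM at day 1 (0.407 to 24.3), 176 CPM at day 2, 65.7 CPM at day 4 and 37.5 CPM at day 10, with all 3 day 2 libraries above those of day 4 (45.1 to 106 CPM). Syt4 likewise had 28.9, 374, 191 and 21.2 CPM on those days. By contrast Btc was still at 74.3 CPM at day 10, while Tnc climbed from 63.2 CPM at day 1 and 235 CPM at day 2 to 507 CPM at day 4 and 1060 CPM at day 10. Fbn2 was at 8.48 CPM at day 1, near the intact level, and at 225 CPM at day 4. Pmp22 went the other way, with 4640 CPM at day 1, 1320 CPM at day 2 and 362 CPM at day 4. Ptn had 30.5 and 23.8 CPM and Cldn1 101 and 45.3 CPM at days 1 and 2, and both were at 181 and 236 CPM at day 10, Ptn above its intact mean of 140 CPM and Cldn1 below its intact mean of 390 CPM. Apart from the first-fit genes of the direct comparisons above, where edgeR called H19 alone, these differences between days were not tested.

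**Figure D4:**
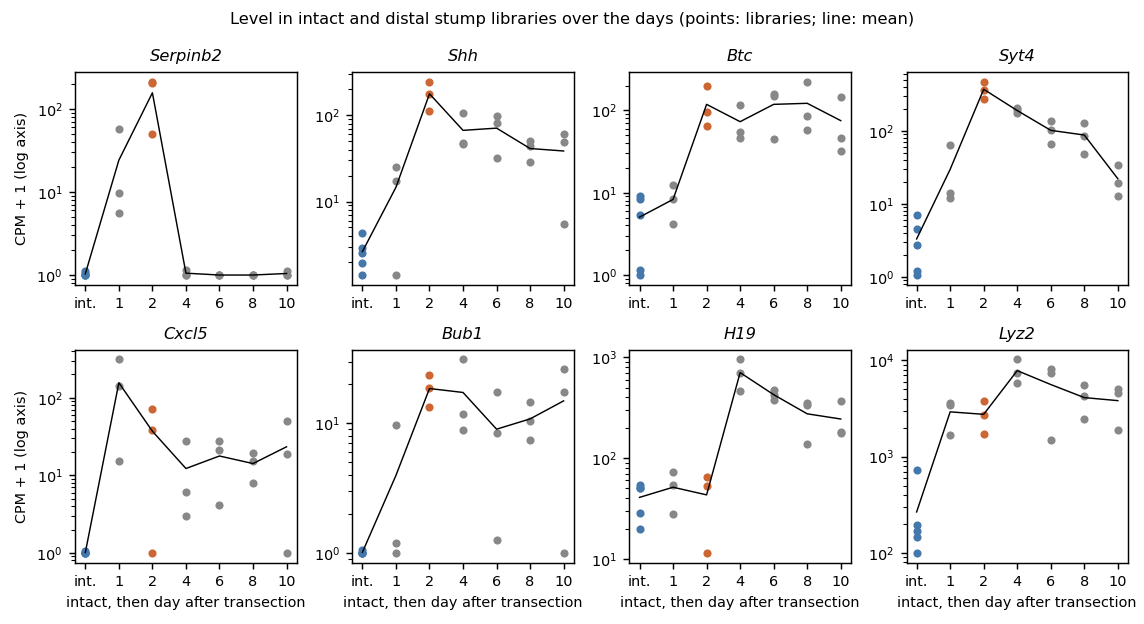
CPM + 1 (log axis) of 8 genes in the intact libraries (int., blue), the day 2 distal libraries (orange) and those of the other distal days (grey), with a line through the means. Serpinb2 reaches a mean of 156 CPM at day 2 and is at most 0.0526 CPM from day 4 on, whereas H19 stays at a mean of 42.2 CPM at day 2 and reaches 702 CPM at day 4.

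A separate set of libraries, 4 of intact nerves and 4 of day 6 dSCs with the nerves of several mice pooled in each, gave the following values at a later day in other animals. Tnc, Fbn2 and Btc were higher there by log2 fold changes of 7.10, 5.04 and 7.99, and Scn7a and Ndrg1 lower, at −3.19 and −3.25, all with an adjusted p of at most 0.000716. Pmp22 was at −5.60 (adjusted p = 0.000516). Cd44 was at 2.03 (adjusted p = 0.00254) and Lgals3 at 1.78 (adjusted p = 0.00254). Timp1, Cxcl14, Cldn1 and Ptn, all called at day 2, were at 1.55, 1.00, 0.15 and 0.15 with adjusted p between 0.357 and 0.956.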

How the data were processed

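SCs of single mouse nerves were sorted on tdTomato and sequenced after Smart-seq2. The authors aligned reads with TopHat2 2.0.11 to mm9, used HTSeq to assign them to genes, and deposited the raw counts of each library, with no normalization, for 24016 genes and the ERCC spike-ins. Lines for unassigned reads (48.8% to 51.6% of the total on no feature) and spike-ins were left out of library sizes. The 35 single-nerve libraries all had at least 10000 detected genes, so that none was removed. The paper reports fewer intact single nerves after its own filtering than the 5 intact libraries used here. R 4.3.3, edgeR 4.0.16 (TMM, quasi-likelihood), DESeq2 1.42.0 and limma 3.58.1 were used, and the fits were checked on simulated counts. Few counts limit low genes, and values such as 0 CPM mean not detected at this depth. Smart-seq2 amplifies cDNA, so that counts are not independent molecules.

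Named genes were the 12 with the largest rise and the 12 with the largest fall among called genes without overlap of the libraries, 8 each outside the first filter and 5 each between days, and called or defining members of the gene lists. The comparison, its members and the lists were chosen with earlier results of these data known. Fbn2, Tlr13, Thbs2, Hsp90aa1, Etf1 and Pa2g4 were named, and the promoters chosen, after their values were seen. CPM values were scaled by the effective library sizes of the first fit. Gene coordinates are those of the GENCODE annotation on mm9. Sums of markers are sums of CPM.

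Libraries 0, 3 and 4 of both groups share numbers. Deviations from the group means of same-numbered libraries correlated at 0.316, 0.561 and 0.484, above a limit of 0.1. The same-numbered libraries also share animal codes in the names of the deposited files, while the labels give them different animals, and this was not resolved. Libraries of unlike number but like Rn45s share also exceeded that limit, at 0.374 to 0.492. Day 2 distal 0 correlated more with intact 1 (0.449) than with intact 0. The limit therefore cannot tell pairs of the same animal from libraries of the same kind. Blocked values are given where they change a call. Alternatives were another tool, normalization, filter or set of libraries, left-out libraries, the block, detected genes as a covariate and, added after the data were seen, a term for Rn45s-rich libraries and Rn45s left out. The cultured rat SC libraries were not used here. Some genes within the naming rule are not reported here.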

Additional observations from a re-analysis of the deposited data

Results flagged for a closer look

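In 5 of 36 measures tested over the 5 intact libraries, a library lay further from the rest than Dixon's limit of 0.71 for its gap over the group's range. Chance gives about 1 in 20 for normally distributed values. That rate does not hold for genes with most intact libraries at or near 0 CPM, so the 5 of 36 cannot be set against it. For Mcoln2, Bub1 and Il21r this ratio was 1, since 4 intact libraries had 0 CPM and the fifth had 0.055, 0.057 and 0.165 CPM, all at the scale of single reads. For Ucn2 it was 0.978, with intact 4 at 10.0 CPM against at most 0.055 CPM, and for Slc37a2 it was 0.811, with intact 5 at 0.77 CPM against at most 0.114 CPM. H19 differed between days after injury: its log2 fold change of day 2 over day 4 was −4.05 (adjusted p = 0.012 by edgeR), with all 3 day 2 libraries below all 3 of day 4.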

How the results depend on the processing

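Of 604 values of named genes under the alternatives, 451 stayed called, 153 kept their direction without passing the threshold and 0 reversed. These genes were picked as called and without overlap, so that their kept direction was nearly fixed in advance. The number of calls moved more. For day 2 against intact (72 in the first fit, 69 with the wider filter) it was 277 and 502 with DESeq2, 1602 and 1630 with limma voom and sample quality weights, 338 and 171 with detected genes as a covariate, 280 and 172 with a term for Rn45s-rich libraries (added after the data were seen), 162 and 124 with the replicate block, 32 and 15 without the 3 libraries of few detected genes, and 0 and 3 in a fit of the groups compared alone. In that fit 1 of 33 named values was called. Leaving out 1 library gave 25 to 140 and 32 to 92 calls. With DESeq2's size factors it was 77 and 73, without Rn45s 75 and 65, without a filter 78 and with edgeR's own filter 69. Against day 1 (0 calls) DESeq2 gave 2 and voom 295, and the leave-one-out fits 0. Against day 4 (1 call) DESeq2 gave 133, voom 29, the Rn45s term 10, the groups alone 0 and the leave-one-out fits 0 to 1. The cause of these shifts was not tested.

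The replicate block changed 8 of the 72 calls and 11 of the 22 outside the first filter. Over the 3 pairs of the block, day 2 had a mean of 539 more detected genes and a log2 spike-in ratio higher by 1.53, with no test. Leaving out 1 library gave 20 to 2775 more detected genes (exact permutation p = 0.0952 to 0.857, in designs whose smallest possible p is 0.0571 or 0.0952, so that none could pass 0.05) and a spike-in ratio from −0.599 to 3.35. With at least 10 counts the difference in detected genes was 685, and the spike-in difference on a linear scale of spike-in CPM was 4.6. Depth limited genes near 0 CPM, whose fold changes rest on 0 to 3 intact reads.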
